A study of Mus musculus with 24 samples.

Results

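The miR-17-92 cluster and its paralogs are 3 groups of miRs that are each transcribed as a single precursor RNA, plus miR-92b, which shares the seed of part of them. Their members were taken by name: every mature probe set of the mouse miR array whose name was miR-17, miR-18a, miR-18b, miR-19a, miR-19b, miR-20a, miR-20b, miR-92a, miR-92b, miR-25, miR-93, miR-106a, miR-106b or miR-363. This gave 14 probe sets of 601 mature ones, in a table that held 1412 mouse probe sets once the passenger strands (marked with a star) and the hairpin precursors were counted. The rule used names alone, but it was set with earlier results of these data known. The passenger strands of the same miRs, 8 probe sets, and their hairpins, 22 probe sets, were read beside them.

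Hippocampal RNA came from C57BL/6 mice labelled male and killed on P9. Pups of the MS2 and MS5 groups received morphine at 2 or 5 mg/kg 2 times a day from P5, and both groups went through maternal separation and bouts of apnea under nitrogen followed by oxygen. Controls (Con) had neither the drug nor the stress, so in every comparison with controls the effect of morphine and that of the stress cannot be told apart. The miR arrays numbered 3 per group and the mRNA arrays of the same study 5 per group, and 8 animals carried the same group and number on both kinds of array. Both hippocampi of an animal were pooled into 1 sample. In such bulk RNA, fewer cells of a type and less RNA per cell cannot be told apart.

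On the mRNA array of MS5 replicate 9, Xist, the RNA that coats an inactive X chromosome, stood at 11.34 (log2) against 5.89 to 6.08 on the other 14 arrays, and the Y-linked Ddx3y stood at 6.24 against 11.01 to 11.45. These values go against the male label of that animal, and one of the miR clusters lies on the X chromosome. Some of the MS5 results are therefore also given without the array labelled MS5 replicate 9. MS2 replicate 4 stood apart as well, on the mRNA array and, for miR-25, on the miR array, and some of the MS2 results are also given without it. Where no such value is printed, how far a result rests on these arrays is not shown. The miR arrays had medians of 4.17 to 4.21 (log2) over all 1412 probe sets, and miR-124, 1 of 7 miRs read as neuron markers, had group means of 14.27, 14.27 and 14.30 in Con, MS2 and MS5. The whole list of neuron markers is given with the other cell types at the end.

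miRs of these clusters are best known as promoters of cell division and cell survival. Myc and the E2F factors, which drive cells into the cycle, raise transcription of the clusters, and several members in turn repress E2F1, the cell cycle inhibitor Cdkn1a (p21) and the death factor Bcl2l11 (Bim). In the developing brain the family is highest in dividing progenitors and has been tied to their expansion and to adult hippocampal neurogenesis.

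The mature sequences fall into 4 seed families, which matters here because the seed (bases 2 to 8, in capitals) sets most of the targets while the rest of the molecule is what lets an array probe tell the members apart. The sequences are from RefSeq, build GRCm38.p6, 5′ to 3′. The array names carry no arm, and the arm was taken from the older naming convention in which the unstarred name is the dominant strand. The first family shares the seed AAAGUGC and is spread over all 3 clusters:
miR-17: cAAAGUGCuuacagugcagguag
miR-20a: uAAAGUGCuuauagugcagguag
miR-106a: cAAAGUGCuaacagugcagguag
miR-20b: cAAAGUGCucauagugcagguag
miR-106b: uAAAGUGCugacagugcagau
miR-93: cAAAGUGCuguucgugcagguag

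The miR-18 family (AAGGUGC) differs from this seed by 1 base, and the miR-19 family (GUGCAAA) is shown beside it because its members were on the high side in MS2:
miR-18a: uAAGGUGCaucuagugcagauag
miR-18b: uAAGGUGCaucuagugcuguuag
miR-19a: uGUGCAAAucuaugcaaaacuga
miR-19b: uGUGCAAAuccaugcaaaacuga

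The miR-92 family (AUUGCAC) holds 4 members, and the first 2 of these sequences are shown because miR-92b was the member farthest below controls while miR-92a, which carries the same seed, was not:
miR-92b: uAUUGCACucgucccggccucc
miR-92a: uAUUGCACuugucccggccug
miR-25: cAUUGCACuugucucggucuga
miR-363: aAUUGCACgguauccaucugua

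The miR-17-92 cluster lies at chr14:115043671-115044506 on the plus strand, 836 bases with 6 hairpins in the order miR-17, miR-18a, miR-19a, miR-20a, miR-19b-1 and miR-92a-1. Its host transcript is the long noncoding RNA Mir17hg, whose RefSeq model (chr14:115044390-115046728) begins inside the hairpin of miR-19b-1. The miR-106a-363 cluster, at chrX:52741693-52742567 on the minus strand, spans 875 bases and also has 6 hairpins. The miR-106b-25 cluster, at chr5:138165321-138165818 on the minus strand, spans 498 bases and lies within the gene Mcm7 (chr5:138164583-138172111), which encodes a subunit of the helicase that opens replication origins. The hairpin of miR-92b stands alone at chr3:89227116-89227198. Mature miR-19b and miR-92a are encoded with identical sequence in the chromosome 14 and X clusters, so their values cannot be assigned to one of them. miR-17 and miR-106a, and likewise miR-19a and miR-19b, differ by 1 base, and 7 pairs of members differ by 2 edits or fewer. How far such probe sets share signal was not tested.

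No member passed the threshold of the study (a change of over 1.5-fold at an unadjusted p under 0.05) in MS2 or MS5 against Con or in MS5 against MS2, and none had a limma adjusted p under 0.05. Over all probe sets the first threshold was passed by 2.97% in MS2, 0.992% in MS5 and 0.425% between the doses, and the adjusted one by 1.13%, 0% and 0%. The members closest to the thresholds were miR-92b and miR-93, both lower in the treated groups, and in MS2 miR-19a and miR-19b, which were higher. The passenger strand of miR-17, miR-17*, passed both thresholds in MS2.

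In MS2 against Con, 5 of the 14 members (35.7%) had an unadjusted limma p under 0.05, against 13.2% of all probe sets and 19.6% of the mature ones. miR-17, miR-92b and miR-93 were lower and miR-19a and miR-19b higher. Median difference over the members was 0.03 (log2), beside -0.01 over all probe sets. The MS2 arrays were all below the lowest control for 3 members, which held for 8.57% of all probe sets, and above them for miR-19a alone, which held for 7.22%. With 3 arrays against 3 the smallest p an exact permutation test can give is 0.1. MS2 replicate 4 decided several of these values. Without it, 4 members (miR-19a, miR-25, miR-92b and miR-93) had a limma adjusted p under 0.05 and 3 (miR-19b, miR-25 and miR-92b) passed the threshold of the study. The shares of all probe sets given above belong to the fit of every array. The share without MS2 replicate 4 is not given here, so these counts cannot be set against those shares. Without MS2 replicate 6, 2 members had an unadjusted limma p under 0.05, and without MS2 replicate 3, 3 did.

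In MS5 against Con, 2 members (14.3%) had an unadjusted limma p under 0.05, against 8.5% of all probe sets and 11.1% of the mature ones, and they were again miR-92b and miR-93. The MS5 arrays were all below the lowest control for miR-17, miR-18a, miR-92b and miR-93, against 5.74% of all probe sets. The median over the members was -0.03, beside 0.00 over all probe sets. Without MS5 replicate 9, 3 members had such a p, with miR-17 added, and without MS5 replicate 12, 1 did. MS2 and MS5 were compared with the same 3 control arrays, so the lower values of a member in both groups are not independent of each other.

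miR-92b had the largest negative difference of the members in MS2 and in MS5. Its levels were 9.18, 9.18 and 9.26 (log2) on the control arrays, 8.64, 8.75 and 8.49 in MS2, and 8.55, 8.90 and 8.97 in MS5. The control arrays were tightly grouped and all 6 treated arrays were below them, while MS2 and MS5 overlapped. The difference was -0.58 ± 0.12 (SE, log2; a ratio of 0.669) in MS2, just short of 1.5-fold, with limma adjusted p = 0.0545. In MS5 it was -0.40 ± 0.12 with limma adjusted p = 0.428. The MS5 difference was -0.48 without MS5 replicate 9 and -0.27 without MS5 replicate 12. miR-92b has been linked to neural progenitors and to cortical neurogenesis.

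The hairpin probe set of miR-92b went the same way at a far lower signal. It read 4.80, 4.74 and 4.94 in controls, 4.47, 4.60 and 4.49 in MS2 and 4.60, 4.58 and 4.64 in MS5, with all treated arrays below the control arrays. Its difference was -0.30 ± 0.08 in MS2 (limma adjusted p = 0.101). The 22 hairpin probe sets lay between 3.69 and 4.94, at or near the array medians, and apart from mir-92b only mir-20b had an unadjusted limma p under 0.05 in MS2. The detection calls of the arrays were not used here.

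miR-93, from the cluster inside Mcm7, showed levels of 11.39, 11.33 and 11.41 in controls. It read 10.999, 11.02 and 10.93 in MS2 and 10.95, 11.11 and 11.29 in MS5. All treated arrays were below the control arrays, with the array labelled MS5 replicate 9 the nearest to them. The difference was -0.39 ± 0.09 in MS2 (limma adjusted p = 0.0885) and -0.26 ± 0.09 in MS5 (limma adjusted p = 0.467). The MS5 difference was -0.35 without MS5 replicate 9, -0.18 without MS5 replicate 12 and -0.14 with quantile normalization on top of the deposited values. The last pair of fits gave no unadjusted limma p under 0.05.

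The other mature miRs of the same precursor lay level with or above controls. miR-106b, which has the same seed as miR-93, had group means of 10.30, 10.31 and 10.37 in Con, MS2 and MS5, with SDs of 0.13, 0.05 and 0.10. Its difference in MS2 was 0.01, with a 95% interval from -0.19 to 0.20. miR-25 read 6.42, 7.12 and 6.90 in controls, 7.86, 6.45 and 7.77 in MS2 and 7.35, 7.08 and 7.02 in MS5. Of the MS2 arrays, replicates 3 and 6 were above every control and replicate 4 was among the lowest. The difference was 0.54 ± 0.34 in MS2 (limma adjusted p = 0.565), and without MS2 replicate 4 it was 1.00 ± 0.19 (limma adjusted p = 0.0185). It was 0.30 without MS2 replicate 3, 0.34 without MS2 replicate 6 and 0.35 without Con replicate 16. The interval of miR-25 in MS2, from -0.22 to 1.31, was the widest of the members.

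The passenger strands of this precursor were lower in MS2. miR-93* read 7.26, 7.20 and 7.005 in controls, 6.73, 6.58 and 6.84 in MS2 and 7.13, 6.89 and 7.17 in MS5. miR-106b* read 8.09, 8.18 and 8.00 in controls, 7.51, 7.86 and 7.61 in MS2 and 8.04, 7.72 and 8.09 in MS5. For both, the MS2 arrays were below all control arrays and the MS5 arrays overlapped them. The differences in MS2 were -0.44 ± 0.11 for miR-93* (limma adjusted p = 0.101) and -0.43 ± 0.12 for miR-106b* (limma adjusted p = 0.152). miR-106b* was thus low in MS2 on the same arrays on which mature miR-106b was level with controls.

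miR-17, the first miR of the chromosome 14 cluster, was lower in both treated groups. Its levels were 11.44, 11.58 and 11.51 in controls, 11.17, 11.42 and 11.24 in MS2 and 11.29, 11.28 and 11.42 in MS5. The highest treated arrays, at 11.42, were close to the lowest control array. The difference was -0.23 ± 0.09 in MS2 (limma adjusted p = 0.259) and -0.18 ± 0.09 in MS5 (limma adjusted p = 0.645). With quantile normalization on top of the deposited values the MS2 difference was -0.12, with no unadjusted p under 0.05.

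Its passenger strand miR-17* was lower as well. The sequences of the 3 passenger strands named here are shown because each comes from the same hairpin as a member, with its seed again in capitals:
miR-17*: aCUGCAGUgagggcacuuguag
miR-93*: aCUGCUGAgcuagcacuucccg
miR-106b*: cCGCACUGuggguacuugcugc

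miR-17* read 8.85, 8.79 and 8.76 in controls, 7.97, 8.29 and 8.28 in MS2 and 8.41, 8.44 and 8.41 in MS5. The 3 groups did not overlap at all, with MS5 between the other two. miR-17* fell by 0.62 ± 0.09 in MS2, a ratio of 0.651 (limma adjusted p = 0.0184). In MS5 the difference was -0.38 ± 0.09 (limma adjusted p = 0.428), and between MS5 and MS2 it was 0.24 (limma adjusted p = 0.612). Of the 8 passenger strands, 3 had an unadjusted limma p under 0.05 in MS2 and 2 in MS5, all of them lower, against 13.2% and 8.5% of all probe sets in either direction. The 5 passenger strands not shown here lay near the array medians, including miR-20a*, the second one lower in MS5.

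The remaining miRs of the chromosome 14 cluster lay on both sides of controls. miR-18a, at 8.84, 8.77 and 8.64 in controls, read 8.30, 8.76 and 8.60 in MS2 and 8.59, 8.43 and 8.51 in MS5. The MS5 arrays were all below the control arrays and the MS2 arrays overlapped them. The difference was -0.20 ± 0.12 in MS2 (limma adjusted p = 0.536) and -0.24 ± 0.12 in MS5 (limma adjusted p = 0.651). miR-20a had group means of 10.34, 10.34 and 10.31, and its difference in MS2 was 0.01 with an interval from -0.21 to 0.23.

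The miR-19 pair was on the high side in MS2. miR-19b read 8.78, 9.38 and 9.24 in controls, 9.68, 9.30 and 9.95 in MS2 and 9.55, 9.35 and 9.06 in MS5. MS2 replicate 4 lay within the control range and the other MS2 arrays above it. The difference was 0.51 ± 0.20 in MS2, a ratio of 1.43 (limma adjusted p = 0.308), and 0.19 ± 0.20 in MS5 (limma adjusted p = 0.908). The MS2 difference was 0.68 without MS2 replicate 4, 0.34 without Con replicate 16 and 0.36 without MS2 replicate 6.

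miR-19a read 4.48, 4.50 and 4.49 in controls, 4.81, 4.61 and 4.98 in MS2 and 4.67, 4.46 and 4.48 in MS5. All MS2 arrays were above the control arrays, which were close together. The difference was 0.31 ± 0.10 in MS2 (limma adjusted p = 0.202). These signals were only a little above the array medians, unlike those of miR-19b, although the sequences differ by 1 base.

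For the miRs of the X chromosome cluster no difference from controls had an unadjusted limma p under 0.05, miR-19b aside. miR-106a had group means of 8.72, 8.93 and 8.68 with SDs of 0.26, 0.18 and 0.22. miR-92a, whose mature form comes from chromosome 14 as well, had means of 8.39, 8.51 and 8.37, and its difference in MS2 was 0.11 with an interval from -0.19 to 0.42. miR-18b (3.93 to 4.27 over all arrays) and miR-363 (3.92 to 4.32) were at the array medians, so changes in them could not be read.

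Between the doses, miR-20b was the only member whose arrays did not overlap. It read 7.25, 7.12 and 7.42 in controls, 7.34, 7.15 and 7.42 in MS2 and 7.15, 6.92 and 7.10 in MS5. Every MS5 array was below every MS2 array, the nearest pair both at 7.15, and such an order of all arrays held for 2.83% of all probe sets. The difference between MS5 and MS2 was -0.25 ± 0.11 (limma adjusted p = 0.692). miR-19a was the other of 2 members with an unadjusted limma p under 0.05 between the doses, with a difference of -0.26 ± 0.10 (limma adjusted p = 0.612). Over all probe sets 7.01% had such a p, and 10.3% of the mature ones. Without MS5 replicate 9 neither of them had a p under 0.05, and over all alternatives this was lost in 7 of 13 for miR-20b and 5 of 13 for miR-19a.

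With MS2 and MS5 pooled, 6 treated arrays were set against 3 control arrays. Then miR-17, miR-92b and miR-93 were below all controls on every treated array, against 2.9% of all probe sets, and these 3 (21.4%) had an unadjusted limma p under 0.05, against 11.9% of all probe sets and 17.3% of the mature ones. The two-sided exact permutation p was 0.0119 for miR-92b and for miR-93, the smallest that this design gives, and 0.0357 for miR-17. The limma adjusted p was 0.105, 0.125 and 0.302, in that order. For miR-17* the pooled difference was -0.50 ± 0.08 (limma adjusted p = 0.0465).

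Members of the same seed or cluster lay on both sides of controls. In MS2 the AAAGUGC family ranged from -0.39 to 0.21 with a median of 0.01, and the AUUGCAC family from -0.58 to 0.54 with a median of 0.12. The 3 miRs of the cluster inside Mcm7 covered -0.39 to 0.54. Over the 14 members, the difference in MS2 had a Pearson r of -0.52 and a Spearman rho of -0.40 with the percentage of G and C in the mature sequence, which was 63.6% for miR-92b, 52.2% for miR-93, 39.1% for miR-19b and 34.8% for miR-19a. miR-25, with 11 of its 22 bases G or C, and miR-92a, at 57.1%, were above controls by 0.54 and 0.11. Over the 11 members with a mean over 5, r was -0.48 and rho -0.28 in MS2. In MS5 the values over the 14 members were -0.46 and -0.45. These are descriptions of 14 points that come from the same arrays and share sequence, and the part of base composition in the array signal was not tested.

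The host genes were read on the mRNA arrays, also in log2. These are another platform with another normalization, so their levels cannot be set against those of the miR arrays. The Mir17hg probe lies at chr14:115445828-115445887 in the coordinates of build mm9, which differ from those given above. It read 8.48, 8.51, 8.51, 8.83 and 9.06 in controls, 8.46, 8.53, 8.04, 8.66 and 8.36 in MS2, and 8.68, 8.43, 8.37, 8.40 and 8.28 in MS5. The groups overlapped. The difference was -0.27 ± 0.13 in MS2 (exact permutation p = 0.143) and -0.25 ± 0.13 in MS5 (exact permutation p = 0.111). The MS2 difference was -0.18 without MS2 replicate 4 and -0.17 without Con replicate 19, the highest control, and without that control the MS5 difference was -0.15.

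Mcm7 read 12.20, 12.38, 12.17, 12.18 and 12.55 in controls, 11.98, 12.24, 11.90, 12.11 and 11.94 in MS2, and 12.26, 12.02, 12.13, 12.18 and 11.99 in MS5. Of the MS2 arrays 4 of 5 were below every control. The difference was -0.26 ± 0.08 in MS2 (exact permutation p = 0.0317, limma adjusted p = 0.97) and -0.18 ± 0.08 in MS5 (exact permutation p = 0.103). Without Con replicate 19 the MS5 difference was -0.12. With single arrays left out, the MS2 difference ran from -0.31 to -0.20. Kis2, the noncoding gene beside the X chromosome cluster, was well above background on 0 of 15 arrays and gave only a bound.

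None of the 50 listed genes (3 hosts, 5 regulators, 28 reported targets and 14 cell cycle genes) passed the threshold of the study or a limma adjusted p under 0.05 in any comparison. Over all 55681 probes, 0.0233% passed the first in MS2, 0.228% in MS5 and 0.129% between the doses, and 0% passed the second in any. An unadjusted limma p under 0.05 was reached by 4.17%, 3.91% and 3.97% of all probes. Of the listed genes, 5 reached it in MS2, 5 in MS5 and 1 between the doses, and those named from the target and cell cycle lists were chosen after their values were seen. Mcm7 in MS2 and Thbs1 in MS5 kept such a p under every alternative run, and each of the others lost it under at least 1.

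The upstream regulators were on the low side in both treated groups. Myc, Mycn, E2f1, E2f2 and E2f3 were lower than controls by 0.09 to 0.22 in MS2 and by 0.09 to 0.19 in MS5, 5 of 5 in each. Both groups were set against the same 5 control arrays, so these are not 2 independent results. Of all 55681 probes, 28427 were lower in MS2 and 27723 in MS5. E2f2, at 9.90, 9.85, 9.58, 9.81 and 9.94 in controls, read 9.76, 9.48, 9.77, 9.57 and 9.55 in MS5. It alone had an unadjusted limma p under 0.05, with a difference of -0.19 ± 0.07 in MS5 (exact permutation p = 0.0556). MS2 replicate 4 was the lowest array of its group for Myc, Mycn, E2f1 and E2f3, as it was for Mir17hg, Mcm7, Mcm2 and Trp53inp1. Without it, 4 of 5 regulators were lower in MS2 and E2f1 was higher by 0.04. Without that array Mycn was at -0.11 and E2f3 at -0.07 in MS2, and Myc in MS5 was at -0.08 without MS5 replicate 12 and -0.09 without Con replicate 18. The second, dimmer probe of E2f3 gave 0.06 in MS2. E2f2 in MS5 was at -0.15 without MS5 replicate 9, with no unadjusted p under 0.05.

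Cell cycle genes sat on the same side by small amounts. All 14, from Mki67 and Top2a to Pcna and the Mcm2 to Mcm6 subunits that work with Mcm7, had lower means than controls in MS2 (median -0.12) and in MS5 (median -0.11), where the medians over all probes were 0.00. Mcm2 in MS2 (-0.18 ± 0.08, exact permutation p = 0.0635) and the mitotic kinase Cdk1 in MS5 (-0.23 ± 0.09, exact permutation p = 0.0476) had an unadjusted limma p under 0.05. With single arrays left out, Mcm2 in MS2 ran from -0.23 to -0.13. Aurkb was well above background on 0 arrays. Under the other ways of processing, all measured ones (14, or 13 where only probes above background were kept) stayed lower in both groups. The directions were not counted for the brightest probe of each gene. Single arrays carried much of the size. Without Con replicate 19, 12 were lower in MS2 (median -0.06) and 11 in MS5 (median -0.02). Without MS5 replicate 9, 11 were lower in MS5 (median -0.08), and without MS2 replicate 4, 14 were lower in MS2 (median -0.10). Genes of the cell cycle are transcribed together, so they are not independent counts, and both groups share their control arrays.

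Reported targets were split. Of 28, 12 were higher and 16 lower than controls in MS2, and the same split held in MS5, with medians of -0.01 in both. Ncoa3, a nuclear receptor coactivator, read 12.21, 12.21, 12.22, 12.31 and 12.18 in controls and 12.34, 12.32, 12.46, 12.48 and 12.31 in MS2. The groups met at 12.31 without overlap. The difference was 0.16 ± 0.04 in MS2 (exact permutation p = 0.00794, the smallest that 5 against 5 can give) and 0.11 ± 0.04 in MS5 (exact permutation p = 0.0159). A second, far dimmer probe of Ncoa3 gave -0.12 in MS2 and 0.01 in MS5.

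Cyld, a deubiquitinase that restrains NF-kB signalling, was 0.27 ± 0.12 higher in MS2 (exact permutation p = 0.0317). The brighter probe of Cyld gave 0.03, with an unadjusted limma p of 0.809, so the difference rests on the choice of probe. Trp53inp1, a p53-induced regulator of cell death, was 0.17 ± 0.06 lower in MS2 (exact permutation p = 0.0397), while its dimmer probe gave 0.07. With single arrays left out, Trp53inp1 in MS2 ran from -0.20 to -0.12. Thbs1, a secreted inhibitor of vessel growth, was 0.33 ± 0.12 lower in MS5 (exact permutation p = 0.0794). The classic targets Bcl2l11 and Cdkn1a were not among those with an unadjusted limma p under 0.05.

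Over the 8 animals measured on both arrays, no relation between a host gene and its miRs had an exact permutation p under 0.05. Of 9 relations computed, Pearson r ranged from -0.26 (Mcm7 and miR-106b, exact permutation p = 0.546) to 0.51 (Mir17hg and miR-20a, exact permutation p = 0.205). For Mcm7 and miR-93, Pearson r was 0.42 and Spearman rho 0.38 (exact permutation p = 0.288 and 0.36), and r was -0.04 without the 2 animals farthest from the median of Mcm7, so that value rested on them. After the group means were taken away, r was -0.25 for this pair. It was -0.49 for Mir17hg and miR-17 and -0.85 for Mir17hg and miR-18a, whose pooled r were 0.27 and -0.06. Over the 9 relations it ran from -0.85 to 0.77, the latter for Mir17hg and miR-92a. No p was computed for these values within groups, which rest on 8 animals in 3 groups. Adjusted p of the exact permutation tests on the pooled r was 0.863 or more over the 9 relations.

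Markers of other cell types were read on the miR arrays. The mean level of the 8 choroid plexus and ependymal miRs ran from 6.46 to 6.95 in controls, 6.29 to 7.04 in MS2 and 5.57 to 6.81 in MS5. The array labelled MS5 replicate 9 read 6.81, within the control range, while MS5 replicates 12 and 14 read 5.57 and 5.64. Of the 8, 3 (miR-204, miR-34b-5p and miR-34c) were lower in MS5 at an unadjusted limma p under 0.05. The marker fits are not given without MS5 replicate 9. The 7 vessel and mesenchyme miRs ran from 7.33 to 7.61, 7.41 to 7.77 and 7.12 to 7.57, and the 3 red blood cell miRs from 5.46 to 5.82, 5.77 to 5.95 and 5.71 to 5.89. Neuron markers, 7 miRs, averaged 9.85 to 10.07 in controls, 10.05 to 10.19 in MS2 and 9.92 to 10.33 in MS5, and the 5 leukocyte and microglial miRs 4.81 to 4.94, 4.74 to 5.01 and 4.79 to 4.91. The marker miRs with an unadjusted limma p under 0.05 in MS2 were miR-214 (-0.78), miR-126-3p (0.50), miR-150 (0.48), miR-223 (-0.25), miR-138 (-0.47) and miR-128 (0.49). In MS5 miR-214 (-0.68), miR-145 (-0.41) and miR-132 (0.36) had such a p beside the 3 choroid plexus miRs. Of all mature probe sets, 19.6% had such a p in MS2 and 11.1% in MS5, in either direction. None of the marker miRs had a limma adjusted p under 0.05. Their part in the values of the miR-17-92 members was not tested.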

How the data were processed

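For the miR arrays the authors deposited log2 values, made by background correction, probe level quantile normalization and median polish (RMA in the submitters' notes). The base of the log is not written in the table and was taken as 2, as RMA gives it. For the mRNA arrays the authors deposited scanner intensity per spot and a table of normalized log2 values, the latter used as an alternative. The number of arrays limits the precision of every value.

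Analyses ran in R 4.3.3 (limma 3.58.1, and data.table in version 1.17.8). The deposited miR values were fitted as they stood, with lmFit and eBayes on all 1412 mouse probe sets, 9 arrays and 3 groups in 1 fit. mRNA intensity was background adjusted with normexp (offset 50), quantile normalized and then log2 transformed, and replicate spots were averaged, which left 55681 probes on 15 arrays. A gene was read from its probe named A_51 or A_52, otherwise from the one with the highest mean. Adjusted p is Benjamini-Hochberg over all probe sets or probes. Exact permutation tests were two-sided, over arrays or over pairings of animals. Nothing says that animals came from separate litters, so p-values measure only the spread between these samples.

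All members are named, and those called, or whose arrays did not overlap in a comparison, are given by array. Hosts and regulators are all named, and targets and cell cycle genes only where called, others being named after their values were seen. The members and lists were chosen with earlier results of these data known. The miR fit was repeated with centring on the median, a further quantile step, array weights, a filter on the mean, mature probe sets alone, only the groups compared and an intensity trend. The mRNA fit was repeated with an offset of 0, the processed signal scaled to the 75th percentile, the series table, only probes above background, the slide as a block and the brightest probe. Each array was also left out in turn. PCR values and target predictions were not used here.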

Additional observations from a re-analysis of the deposited data

Results flagged for a closer look

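For E2f3, a cell cycle transcription factor upstream of the clusters, MS2 replicate 4 read 11.12 (log2) while the nearest other MS2 array read 11.69, a gap that covered 0.936 of the range of the group. In all, 42 groups of 5 arrays (14 genes in 3 groups) were examined this way and 1 stood out, and chance flags about 1 group in 20. These were the hosts, the regulators and the called genes, and the rest of the listed genes were not examined. Among those, MS2 replicate 4 read 12.05 for Cdkn1a, with the nearest MS2 array at 10.61, and 6.63 for Eomes, with the nearest at 8.94. MS5 replicate 8 read 10.92 for Mapk14, with the nearest MS5 array at 12.68. The groups of miR arrays, with 3 arrays each, were too small for the same rule.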

How the results depend on the processing

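In MS5 against Con no member passed the threshold of the study or a limma adjusted p under 0.05 under any alternative run, and the differences of miR-17, miR-92b, miR-93 and miR-17* from controls kept their direction in all of them. In MS2, the threshold of the study was passed by 1 member (miR-19b) with quantile normalization on top and by 3 (miR-19b, miR-25 and miR-92b) with array weights. Limma adjusted p was under 0.05 for 2 members with array weights (miR-92b and miR-93) and for 1 (miR-92b) among probe sets with a mean above the median, where fewer probe sets were tested. For both doses together, array weights gave 1 member by adjusted p and 7 by unadjusted p. The count by unadjusted p in MS5 was 1 with quantile normalization on top or an intensity trend. Between the doses it was 1 with the filter on the mean, mature probe sets alone or only the groups compared. The causes of these changes were not tested.

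Leaving out single arrays gave 0 to 3 members past the threshold of the study in MS2 (3 without MS2 replicate 4, 2 without Con replicate 17, 1 without Con replicate 16 or MS2 replicate 3), 0 to 4 by adjusted p (4 without MS2 replicate 4, 0 otherwise) and 2 to 7 by unadjusted p (7 without MS2 replicate 4, 3 without MS2 replicate 3, 2 without MS2 replicate 6). By unadjusted p, MS5 gave 1 to 3 (1 without MS5 replicate 12). Between the doses it gave 0 to 5 (5 without MS5 replicate 12, 4 without MS2 replicate 4, 1 without MS2 replicate 6, 0 without MS2 replicate 3, MS5 replicate 14 or MS5 replicate 9), and the threshold of the study 0 to 1. For both doses together the 3 counts ran from 0 to 1, 0 to 1 and 2 to 7, highest without MS2 replicate 4. No share over all probe sets is set beside these counts or those of the other alternatives. A rise in them therefore cannot be read as particular to the members.

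No listed mRNA passed the threshold of the study or an adjusted p under 0.05 under any alternative run. By unadjusted p, 3 did with an offset of 0 and 2 with the processed signal, in MS2 and in MS5 alike, and between the doses 2 with the series table and 5 with the slide as a block. Leaving out single arrays gave 2 to 7 in MS2 (2 without Con replicate 18, 7 without Con replicate 15), 2 to 7 in MS5 (2 without Con replicate 19, 3 without MS5 replicate 14, 7 without Con replicate 15 or MS5 replicate 13) and 0 to 2 between the doses (0 without MS5 replicate 9). No share over all probes is set beside these counts of listed genes under the alternatives. A change in them therefore cannot be read as particular to the listed genes. E2f1 in MS2 ran from -0.17 to 0.044, positive only without MS2 replicate 4. Without the 2 animals farthest from the median, Pearson r turned to -0.036 for Mcm7 and miR-93, 0.29 for Mir17hg and miR-18a, and 0.30 for Mir17hg and miR-19a. The paper states that treated pups were housed with untreated littermates, but the sample labels name no litter. No analysis paired by litter was therefore possible.

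With 3 miR arrays per group, 1 array carries much of each mean. miR-18b and miR-363, at the array medians, and miR-19a, a little above them, carry little signal over background. The miR values rest on the authors' own normalization, and probe signals behind it were not used here.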
